A study of Mus musculus with 6 samples.

Results

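The nuclear genes for subunits of oxidative phosphorylation were followed in cultured mouse B cells that carried Sox2 on a retroviral vector and in B cells that carried the vector alone. The members were the rows of the count table whose symbol begins with Ndufa, Ndufb, Ndufc, Ndufs or Ndufv and a digit, with Uqcr, with Cox4 to Cox8 or with Atp5, together with Sdha, Sdhb, Sdhc and Sdhd. Of the 37620 genes in the table, 87 matched and 81 of these had at least 10 counts summed over the 6 libraries. Nearest to that limit were Ndufa4l2 with 15 counts inside it and Atp5l2 with 6 outside it. Of the 81, 3 are no subunits of the complexes (Cox4nb, Atp5s and Atp5sl) and were kept apart, which left 78: 35 in complex I, 4 in complex II, 8 in complex III, 16 in complex IV and 15 in complex V. Ndufa4 and its relative Ndufa4l2 matched by a complex I name and were placed with complex IV, where the Ndufa4 protein is found.

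Complexes I to IV pass electrons from NADH and succinate to oxygen in the inner mitochondrial membrane, and complexes I, III and IV pump protons as they do so. Complex V, the ATP synthase, lets the protons flow back and makes ATP. Most subunits are encoded in the nucleus and imported, whereas a small core of complexes I, III, IV and V is encoded in mitochondrial DNA. Resting B cells that are activated through CD40 and the IL-4 receptor grow and divide, and their mitochondria respire more.

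There were 3 libraries of pMIR-Sox2 cells, which carried Sox2, and 3 libraries of pMIR cells, which carried the same vector without it. All cells were splenic B cells of C57Bl/6 mice aged 4 months, kept with anti-CD40 (1 µg/ml) and IL-4 (12.5 µg/ml), infected at 24 and 48 h and sorted at 96 h for mCherry, which stood in for infection, so the libraries hold sorted carriers of the vector. Nothing in the labels states that the replicates are different mice, so every p-value rests on library-to-library spread alone, which may be technical. Values are CPM, counts scaled by each library's effective size, and are relative levels. In bulk RNA, fewer cells with a transcript and less of it per cell cannot be told apart.

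Gene counts ran from 17153805 to 20770447 per pMIR-Sox2 library and from 21421769 to 27692437 per pMIR library. Sox2 was read at 989, 786 and 624 CPM in pMIR-Sox2 replicates 1 to 3, against 0.738, 0.334 and 1.78 CPM in pMIR replicates 1 to 3. Among B cell markers, Cd79a stood at 674 to 889 CPM in pMIR-Sox2 and 547 to 756 CPM in pMIR and did not pass the gene test. Cd79b fell (269 to 393 CPM in pMIR-Sox2, 686 to 903 CPM in pMIR), Ms4a1 fell (142 to 329.9 CPM in pMIR-Sox2, 597 to 765 CPM in pMIR) and Pax5 rose (282 to 424 CPM in pMIR-Sox2, 169 to 197 CPM in pMIR). The 5 T cell markers summed to at most 0.138 CPM in pMIR-Sox2 and 0.524 CPM in pMIR, with Cd3e and Cd8a at 0 in pMIR-Sox2. The 4 macrophage markers summed to 26.4 to 31.4 CPM in pMIR-Sox2 and 17.8 to 21.1 CPM in pMIR, and Emr1 made up nearly all. Lyz2 had 10 to 17 counts in pMIR-Sox2 and 0 to 1 in pMIR. Csf1r went the other way, with 6 to 10 counts in pMIR-Sox2 and 11 to 20 in pMIR, and did not pass. Cd14 was at 0 in pMIR-Sox2. The 3 plasma cell markers summed to 22.1 to 35.6 CPM in pMIR-Sox2 and 26.8 to 64.7 CPM in pMIR. Within that sum Prdm1 rose (22.1 ± 7.41 CPM in pMIR-Sox2, 9.69 ± 0.953 CPM in pMIR), Igj fell (1.19 ± 0.173 CPM in pMIR-Sox2, 24.5 ± 21.1 CPM in pMIR) and Sdc1 did not pass. Those of neutrophils, NK cells and erythroid cells each summed to at most 0.232 CPM in any pMIR-Sox2 library and 0.192 CPM in any pMIR library. The part of these markers in the results was not tested.

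The promoters of 4 members are printed because 3 are complex I genes that fell and the other, Cox7a1, has the largest fold change of all members. They are the 250 bases before the start, 5′ to 3′, from RefSeq on GRCm38.p6, and capitals mark a match to the letters described after them. Ndufs8 lies at chr19:3912775-3913024 (minus strand), Ndufs7 at chr10:80249199-80249448 (plus strand), Ndufa5 at chr6:24527691-24527940 (minus strand), where the start farthest upstream was taken, and Cox7a1 at chr7:30183921-30184170 (plus strand).
Ndufs8: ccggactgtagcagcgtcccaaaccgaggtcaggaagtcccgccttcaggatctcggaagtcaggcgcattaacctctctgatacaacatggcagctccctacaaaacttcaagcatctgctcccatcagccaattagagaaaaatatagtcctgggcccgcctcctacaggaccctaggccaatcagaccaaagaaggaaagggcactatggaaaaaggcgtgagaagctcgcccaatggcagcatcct
Ndufs7: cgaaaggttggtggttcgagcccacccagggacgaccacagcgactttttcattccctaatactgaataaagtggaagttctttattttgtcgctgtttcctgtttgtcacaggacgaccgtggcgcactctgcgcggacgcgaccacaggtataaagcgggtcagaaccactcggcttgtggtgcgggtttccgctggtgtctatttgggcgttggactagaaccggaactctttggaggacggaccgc
Ndufa5: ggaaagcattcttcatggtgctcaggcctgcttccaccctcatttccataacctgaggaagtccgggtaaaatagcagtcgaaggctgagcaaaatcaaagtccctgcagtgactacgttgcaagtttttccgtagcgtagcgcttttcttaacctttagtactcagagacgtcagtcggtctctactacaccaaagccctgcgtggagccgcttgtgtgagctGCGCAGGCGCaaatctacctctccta
Cox7a1: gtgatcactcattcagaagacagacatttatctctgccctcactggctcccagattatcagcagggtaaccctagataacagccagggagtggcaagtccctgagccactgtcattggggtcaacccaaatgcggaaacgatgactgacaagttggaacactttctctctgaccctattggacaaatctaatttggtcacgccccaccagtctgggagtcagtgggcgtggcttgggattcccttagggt

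Of the 77 subunit genes that entered the gene test, 65 had a promoter in the RefSeq table. Sets of letters were searched on both strands of the 250 bases, and none of the 4 contains another: GCGCA, any base and GCGC for NRF-1, CCGGAAG for ETS factors such as GABP, AAGATGGCG for YY1 and CATTGTT for SOX proteins. NRF-1 and GABP are the classical activators of respiratory chain genes. The NRF-1 letters stood before 13 of the 65 genes (20.0%), and before 4.23% of all 27025 genes in the table. The ETS letters stood before 12 of 65 (18.5%, against 7.83% of all genes), the YY1 letters before 1 (1.54%, against 0.71%) and the SOX letters before 1 (1.54%, against 3.78%). Of the 9 subunit genes that rose or fell, Uqcrb and Uqcrq were not searched. Among the other 7, Ndufa5 had a match, to the NRF-1 letters, and no other did. A match is a description of these letters in this window and was not tied to any change.

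Most subunit genes stood close to their pMIR level when Sox2 was present. Of the 77 tested, 4 rose and 5 fell, 9 in all or 11.7%, whereas 43.2% of the 12898 genes tested were called (23.2% rose and 20.0% fell). Among genes with a mean of at least 20 CPM, a level that 71 of the 77 reached, the share called was 45.9%, and 8 of those 71 subunit genes (11.3%) were called. Over the 77, log2 fold changes ran from −0.46 for Atp5g1 to 1.33 for Cox7a1 with a median of −0.06, beside a median of −0.02 over all genes tested. The 95% interval of the log2 fold change lay within 0.5 on either side of 0 in 64 of 77 subunit genes (83.1%), and in 26.8% of all genes tested and 40.7% of those with at least 20 CPM. The groups' libraries did not overlap for 29 of the 77, 8 higher and 21 lower in pMIR-Sox2, against 56.5% of all genes tested. A difference in 3 libraries against 3 cannot go below 0.1 in a two-sided exact permutation test, so calls are those of edgeR's quasi-likelihood test with Benjamini-Hochberg adjustment over all genes, at 0.05.

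With the replicate number as a block 4 rose and 6 fell (backgrounds 27.0% and 25.7%, 52.7% in all); all 9 calls were kept and Ndufs3 was added. Taken as pairs, 11 of the 77 were higher in pMIR-Sox2 in all 3 pairs, against 36.4% of all genes tested, 30 of the 77 were lower in all 3, against 37.8% of all genes, and 36 were mixed. Scaling by library totals alone gave 5 rises (Ndufb3 joined, 0.28) and 3 falls (Atp5g1 and Ndufa5 did not pass). Without pMIR-Sox2 replicate 3, the library nearest to pMIR on the first principal component, 4 rose and 8 fell. Without pMIR-Sox2 replicate 1, in which 58 of the 77 had their lowest pMIR-Sox2 level, 5 rose and 2 fell. Leaving out another library gave 2 rises and 3 falls without pMIR-Sox2 replicate 2, 2 and 2 without pMIR replicate 1, 1 and 5 without pMIR replicate 2, and 1 and 3 without pMIR replicate 3.

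**Figure D1:**
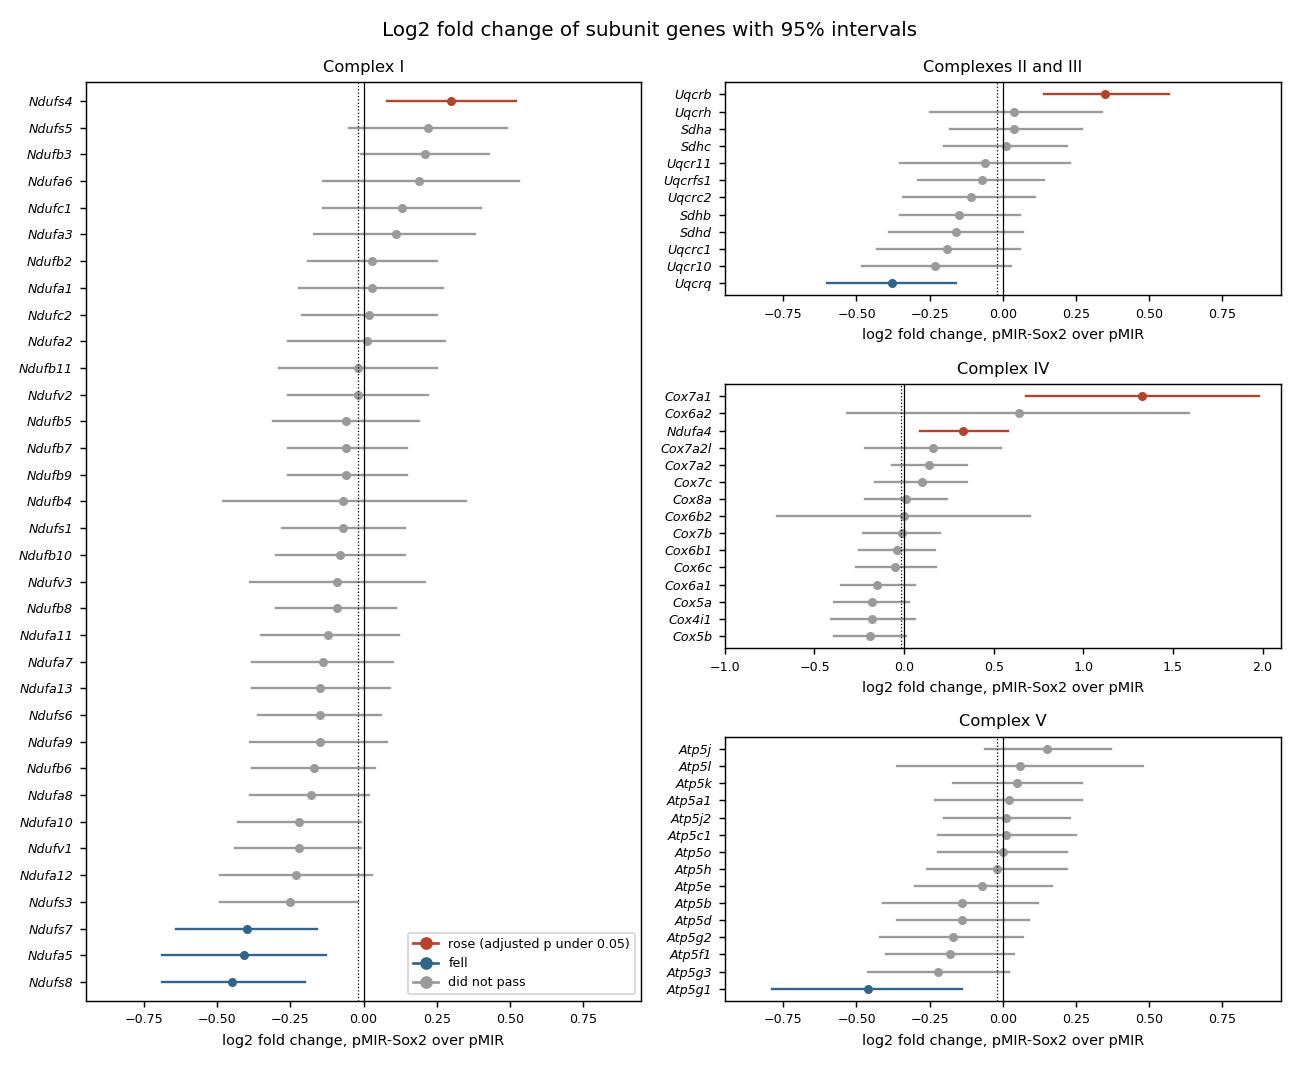
Log2 fold change (horizontal axis, pMIR-Sox2 over pMIR) of tested subunit genes by complex (all but 1 are drawn), as a point with its 95% interval; red genes rose, blue genes fell and grey genes did not pass, and the dotted line is the median of all genes tested (−0.02). Most intervals cross 0, and the complex IV panel has a wider axis because Cox7a1 lies at 1.33.

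Complex I, the NADH dehydrogenase, had 3 members that fell (Ndufs8, Ndufs7 and Ndufa5), 1 that rose (Ndufs4) and 31 that did not pass, with a median log2 fold change of −0.07 and a range of −0.45 to 0.30. The 3 that fell all belong to the part of the matrix arm that passes electrons to ubiquinone, a grouping made after the values were seen. The 7 nuclear core subunits, which carry the flavin and the iron-sulfur clusters, had values below 0 in 7 of 7 with a median of −0.22, and 2 of them fell. The 28 accessory subunits had values below 0 in 18 with a median of −0.06, and 1 fell and 1 rose. The sign of values near 0 depends on the scaling: with library totals only, which gave a median of 0.06 over all genes, the medians were 0.01 for complex I, 0.01 for complex II, −0.02 for complex III, 0.07 for complex IV and 0.06 for complex V.

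Ndufs8 (ENSMUSG00000059734), which holds iron-sulfur clusters next to the ubiquinone site, stood at 54.9, 60.3 and 69.3 CPM in pMIR-Sox2 replicates 1 to 3, against 83.3, 82.2 and 86.1 CPM in pMIR replicates 1 to 3. All pMIR-Sox2 libraries lay below all pMIR libraries, with means of 61.5 ± 7.29 CPM and 83.8 ± 2.02 CPM (SD, n = 3 each). The log2 fold change was −0.45 ± 0.11 (SE, edgeR adjusted p = 0.00933), and Ndufs8 kept its call under every alternative run, the 6 that leave out a library included. Ndufs7 (ENSMUSG00000020153), which carries the last iron-sulfur cluster before ubiquinone, stood at 35.0045, 36.2 and 42.3 CPM in pMIR-Sox2 and at 49.5, 49.995 and 50.2 CPM in pMIR. Here too the groups did not overlap, and pMIR-Sox2 replicate 3 was again the nearest to pMIR. The log2 fold change was −0.40 ± 0.11 (edgeR adjusted p = 0.0137; 0.0512 without pMIR-Sox2 replicate 1).

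Ndufa5 (ENSMUSG00000023089), an accessory subunit of the same part of the arm, stood at 20.4, 20.5 and 24.7 CPM in pMIR-Sox2 and at 31.9, 26.6 and 28.8 CPM in pMIR, with no overlap. Its log2 fold change was −0.41 ± 0.13 (edgeR adjusted p = 0.0256). That call ended with library totals only (0.0523) and with either pMIR-Sox2 replicate 1 (0.0892) or 2 (0.0754) left out, and likewise pMIR replicate 1 (0.102) or pMIR replicate 3 (0.0674). Ndufs3, a core subunit beside them, stood at 47.2, 52.1 and 57.8 CPM in pMIR-Sox2 and at 61.1, 63.5 and 62.7 CPM in pMIR. The libraries did not overlap, yet its log2 fold change of −0.25 ± 0.10 missed the threshold (edgeR adjusted p = 0.0759) and passed it with the replicate block (0.0355).

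Ndufs4 (ENSMUSG00000021764), an accessory subunit needed to complete the arm that binds NADH, was the complex I gene that rose. It stood at 66.6, 77.4 and 72.7 CPM in pMIR-Sox2 and at 58.8, 61.1 and 56.1 CPM in pMIR, so that every pMIR-Sox2 library was above every pMIR library. Its log2 fold change was 0.30 ± 0.10 (edgeR adjusted p = 0.0353), and the call ended without pMIR-Sox2 replicate 2 (0.0979), pMIR replicate 1 (0.102), pMIR replicate 2 (0.0614) or pMIR replicate 3 (0.143). Ndufb3, Ndufs5 and Ndufa6, small accessory subunits, had the next highest values, 0.21, 0.22 and 0.19, and did not pass.

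Per kilobase of exon, Ndufb11 (156 CPM per kilobase) and Ndufc2 (135 CPM per kilobase), accessory subunits of the membrane arm, had the highest levels of complex I, against a median of 43.8 over its 35 members. Ndufb11 averaged 141 ± 17.3 CPM in pMIR-Sox2 and 142 ± 12.5 CPM in pMIR, and its log2 fold change interval ran from −0.29 to 0.25. Ndufc2 averaged 102 ± 10.2 CPM in pMIR-Sox2 and 101 ± 1.73 CPM in pMIR, with an interval of −0.21 to 0.25. Both overlapped between the groups. Ndufb4 had the lowest level per kilobase (3.28), and its transcript has 2 annotated pseudogene copies of at least 95% identity over 100 bases or more, with which it may share reads. Reads of no unique place stayed out of the counts, so such a gene may lose reads.

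**Figure D2:**
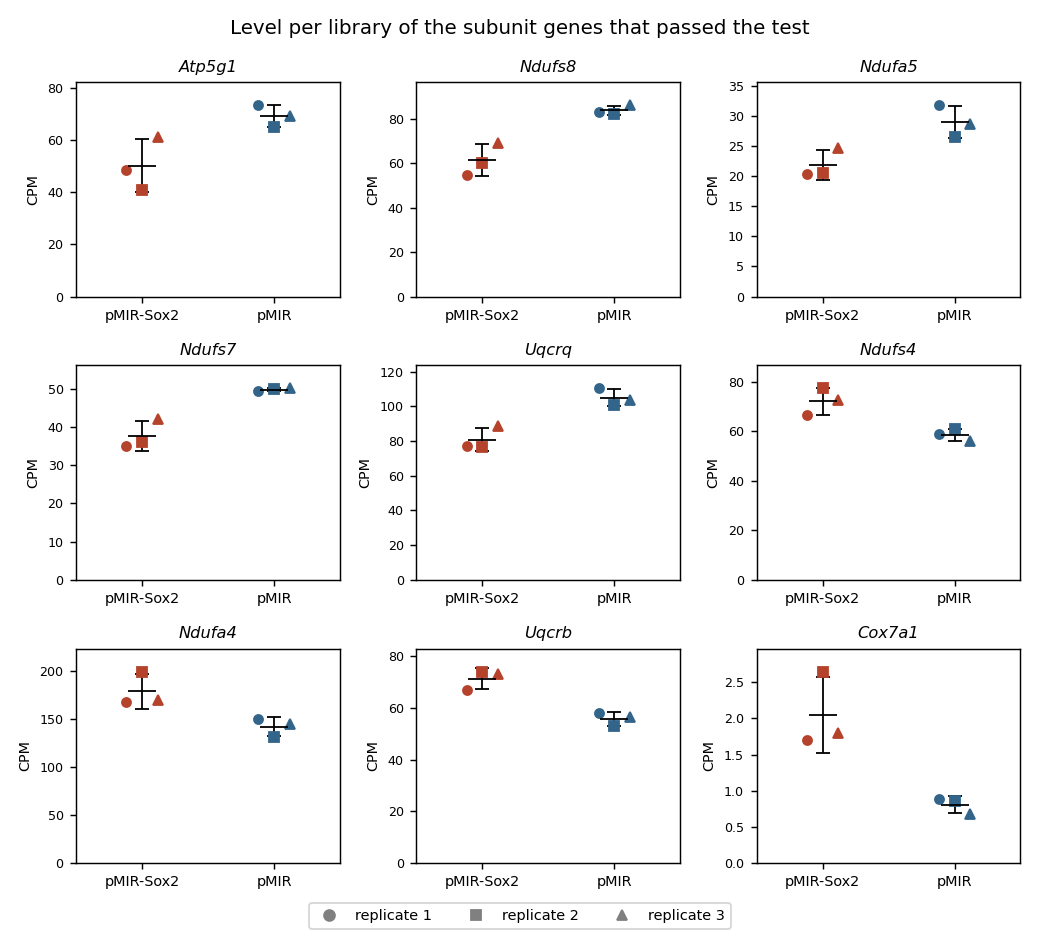
Level (CPM, vertical axis from 0) of the 9 subunit genes that passed the test, in pMIR-Sox2 (left, red) and pMIR (right, blue) libraries; markers give the replicate and bars the mean ± SD (n = 3 each). In all 9 panels the libraries of the groups do not overlap, with pMIR-Sox2 lower in Atp5g1, Ndufs8, Ndufa5, Ndufs7 and Uqcrq and higher in Ndufs4, Ndufa4, Uqcrb and Cox7a1.

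Complex II, the succinate dehydrogenase that also serves the citric acid cycle, had 0 of 4 members called by edgeR, with 0 at an unadjusted p under 0.05 and 0 by DESeq2 or limma-voom. Sdha, the flavoprotein that oxidises succinate, stood at 311, 290.3 and 297 CPM in pMIR-Sox2 and at 292, 272 and 308 CPM in pMIR. The libraries were interleaved, and the log2 fold change interval was −0.18 to 0.27. Sdhd, a membrane anchor with the highest level per kilobase of the complex (97.9), stood at 111, 110.0 and 120.0 CPM in pMIR-Sox2 and at 140, 119 and 123 CPM in pMIR (interval −0.39 to 0.07). Sdhb, the iron-sulfur subunit, and Sdhc, the other anchor, had log2 fold changes of −0.15 and 0.01.

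Complex III, which passes electrons from ubiquinol to cytochrome c, had 1 member that fell (Uqcrq), 1 that rose (Uqcrb) and 6 that did not pass, with a median of −0.09. Uqcrq (ENSMUSG00000044894), a small subunit that lies beside cytochrome b, stood at 77.2, 76.6 and 88.6 CPM in pMIR-Sox2 and at 110.4, 101 and 104 CPM in pMIR. The groups did not overlap, and the log2 fold change was −0.38 ± 0.10 (edgeR adjusted p = 0.0134; 0.0572 without pMIR replicate 1). Uqcrb (ENSMUSG00000021520), another small subunit that binds cytochrome b, went the other way. It stood at 66.8, 74.2 and 73.2 CPM in pMIR-Sox2 and at 58.2, 52.9 and 56.6 CPM in pMIR, again without overlap. Its log2 fold change was 0.35 ± 0.10 (edgeR adjusted p = 0.0156; 0.0631 without pMIR replicate 2 and 0.0589 without pMIR replicate 3). The Uqcrb transcript has 3 annotated pseudogene copies by the same measure, and Uqcrq has 0. Exons of Uqcrb also overlap those of Gm10767 in GENCODE M21. Reads counted as ambiguous, 0.283 to 0.307% of a library's total, stayed out of the gene counts. The counting's use of strand and annotation are unknown, so Uqcrb may have lost reads there or gained them.

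Cyc1, the catalytic cytochrome c1 of complex III, lies outside the symbols that chose the members. It stood at 112, 98.0 and 127 CPM in pMIR-Sox2 and at 158, 126 and 145 CPM in pMIR. The libraries overlapped slightly, and its log2 fold change of −0.35 ± 0.13 missed the threshold (edgeR adjusted p = 0.0511) and passed it with the replicate block (0.00636). Uqcrfs1, the Rieske iron-sulfur protein, had a log2 fold change of −0.07 (interval −0.29 to 0.14), and the core proteins Uqcrc1 and Uqcrc2 had −0.19 and −0.11; none of these 3 passed. Uqcr10 and Uqcrh, the members with the highest levels per kilobase (139 and 128), had −0.23 and 0.04. Uqcr10 averaged 75.01 ± 7.63 CPM in pMIR-Sox2 and 87.9 ± 8.15 CPM in pMIR, and it passed when pMIR-Sox2 replicate 3 was left out (−0.31, edgeR adjusted p = 0.0486). Uqcrh, which helps cytochrome c dock, averaged 161 ± 26.4 CPM in pMIR-Sox2 and 156 ± 12.7 CPM in pMIR.

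Complex IV, the cytochrome c oxidase, had 2 members that rose, Cox7a1 and Ndufa4, and 13 that did not pass; 0 fell by edgeR, with 0 lower at an unadjusted p under 0.05 and 0 by DESeq2 or limma-voom. Its median log2 fold change was 0.00. Cox7a1 (ENSMUSG00000074218), the isoform of subunit VIIa known from heart and skeletal muscle, was among the lowest of all members. It had 37, 49 and 31 counts or 1.70, 2.65 and 1.80 CPM in pMIR-Sox2, against 24, 18 and 14 counts or 0.885, 0.858 and 0.672 CPM in pMIR. Every pMIR-Sox2 library was above every pMIR library, with a log2 fold change of 1.33 ± 0.29 (edgeR adjusted p = 0.00542) that kept its call under every alternative run. Even so, Cox7a1 made up 3.09 ± 0.553% of the summed level per kilobase of Cox7a1 and Cox7a2 in pMIR-Sox2 and 1.37 ± 0.165% in pMIR (SD, n = 3 each). Cox7a2, the isoform of most tissues, stood at 105, 121 and 112 CPM in pMIR-Sox2 and at 104, 103 and 99.4 CPM in pMIR (log2 fold change 0.14, edgeR adjusted p = 0.259).

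Ndufa4 (ENSMUSG00000029632), found with complex IV, stood at 167, 199.5 and 169.7 CPM in pMIR-Sox2 and at 150.1, 131 and 145 CPM in pMIR. The groups did not overlap, and pMIR-Sox2 replicate 2 was the highest library. The log2 fold change was 0.33 ± 0.11 (edgeR adjusted p = 0.0342), and the call ended without pMIR-Sox2 replicate 2 (0.0997), pMIR replicate 1 (0.0655), pMIR replicate 2 (0.117) or pMIR replicate 3 (0.0923). Ndufa4l2, its relative known from low oxygen, had 1, 3 and 3 counts in pMIR-Sox2 and 5, 2 and 1 in pMIR, too few to enter the test.

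Among the other isoform pairs of complex IV, the widely expressed form predominated in both groups. Cox4i1 averaged 211 ± 16.8 CPM per kilobase in pMIR-Sox2 and 239 ± 7.13 in pMIR, whereas Cox4i2, its relative known from lung, had 1 count over the pMIR-Sox2 libraries and 3 over the pMIR libraries. Cox6a1 made up 96.4 ± 1.84% of the Cox6a1 and Cox6a2 sum in pMIR-Sox2 and 97.8 ± 0.605% in pMIR. Cox6a2, another isoform of striated muscle, varied widely between libraries, with 2.53, 7.30 and 9.16 CPM in pMIR-Sox2 and 2.95, 5.29 and 3.94 CPM in pMIR. Its groups overlapped and its log2 fold change of 0.64 ± 0.42 did not pass (edgeR adjusted p = 0.252), but it passed without pMIR-Sox2 replicate 1 (1.03, adjusted p = 0.0273). Exons of Cox6a2 overlap those of Itgad in GENCODE M21. Cox6b2, known from testis, was at 3.49, 2.38 and 2.55 CPM in pMIR-Sox2 and at 4.13, 1.95 and 2.30 CPM in pMIR, with an interval of −0.71 to 0.70. Cox7b2, Cox8b and Cox8c had 0 counts in each of the 6 libraries.

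Cox8a and Cox6a1, small subunits, had the highest levels of complex IV per kilobase (297 and 254). Cox8a averaged 184 ± 15.8 CPM in pMIR-Sox2 and 183 ± 7.66 CPM in pMIR, with an interval of −0.22 to 0.24. Cox6b1 and Cox7b had intervals of −0.25 to 0.17 and −0.23 to 0.20. Cox7a2l, a relative of Cox7a2 described as joining complexes III and IV into supercomplexes, stood at 128, 203 and 167 CPM in pMIR-Sox2 and at 132, 171 and 143 CPM in pMIR. Whether it does so in cells of this mouse strain was not examined. The replicates kept the same order in both groups, replicate 2 highest and replicate 1 lowest, and the log2 fold change of 0.16 ± 0.17 did not pass.

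**Figure D3:**
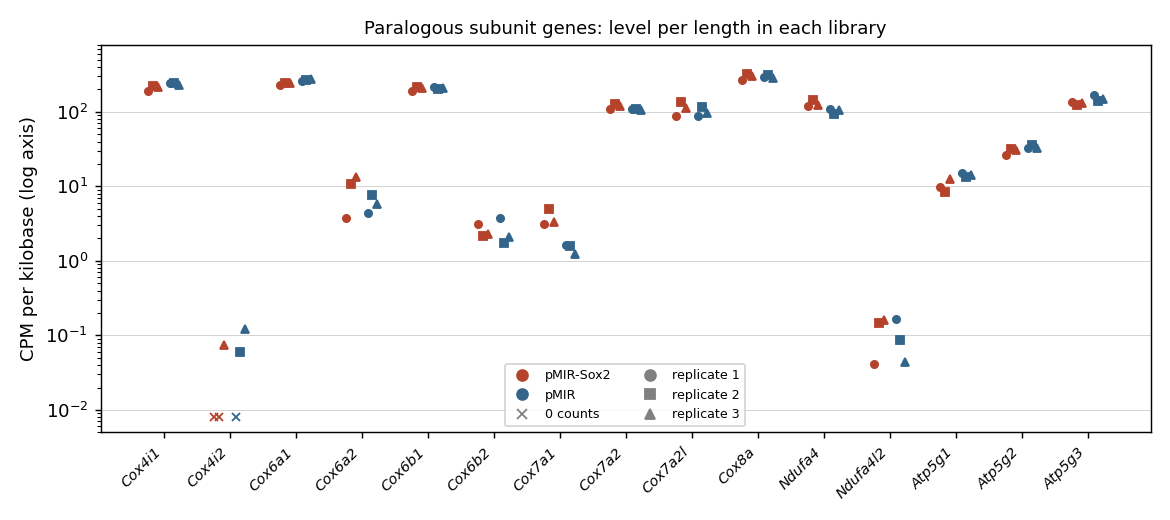
Level per length (CPM per kilobase of exon, log axis) of isoforms and relatives in each library, pMIR-Sox2 in red on the left of each gene and pMIR in blue on the right; crosses mark libraries with 0 counts. Cox7a1 is higher in all 3 pMIR-Sox2 libraries and stays far below Cox7a2, and the spread between libraries is widest for the genes of few counts.

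Complex V, the ATP synthase, had 1 member that fell, Atp5g1, and 14 that did not pass; 0 rose by edgeR, with 0 higher at an unadjusted p under 0.05 and 0 by DESeq2 or limma-voom. Its median was −0.02. Atp5g1 (ENSMUSG00000006057) is 1 of 3 genes that make the same protein of the rotor ring, and its transcript has 2 annotated pseudogene copies. It stood at 48.7, 40.8 and 61.1 CPM in pMIR-Sox2 and at 73.4, 64.9 and 69.1 CPM in pMIR, without overlap. The log2 fold change was −0.46 ± 0.14 (edgeR adjusted p = 0.0285), and the call ended with library totals only (0.0531) and with either pMIR-Sox2 replicate 1 (0.0908) or 2 (0.0740) left out, and likewise pMIR replicate 1 (0.0947) or pMIR replicate 3 (0.0745). Atp5g3 stood at 299, 269.9 and 289 CPM in pMIR-Sox2 and at 366, 305 and 328 CPM in pMIR, and Atp5g2 averaged 50.03 ± 5.24 CPM and 56.5 ± 2.96 CPM in the same order of groups. Neither overlapped between groups, yet their log2 fold changes of −0.22 and −0.17 did not pass (edgeR adjusted p = 0.127 and 0.225). Atp5g1 made up 5.95 ± 1.03% of the ring genes' summed level per kilobase in pMIR-Sox2 and 7.03 ± 0.113% in pMIR, Atp5g3 76.6 ± 2.203% and 76.1 ± 1.87%. These shares rest on all annotated exons joined, 4912 bases for Atp5g1, 1675 for Atp5g2 and 2181 for Atp5g3. Not divided by length, Atp5g1 averaged 50.2 CPM in pMIR-Sox2 and 69.1 CPM in pMIR, no lower than Atp5g2.

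Atp5a1 and Atp5b, the alpha and beta subunits of the catalytic head, had the highest levels of all members per kilobase (370 and 349). Atp5a1 stood at 1238, 1108 and 1152 CPM in pMIR-Sox2 and at 1232, 1077 and 1151 CPM in pMIR. Atp5b stood at 1443, 1288 and 1489 CPM in pMIR-Sox2 and at 1675, 1430 and 1558 CPM in pMIR. For both genes the libraries overlapped, and the intervals were −0.23 to 0.27 and −0.41 to 0.12. The 5 head genes had a median of −0.07, the 7 tested stalk and membrane genes a median of 0.01, and none of these 12 genes passed. Atp5l, a membrane subunit, had the lowest level per kilobase (1.66, over 6443 bases of annotated exon) and the most annotated pseudogene copies of any tested subunit gene, 9 by the measure given for Ndufb4.

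The members' counts were summed to set the complexes beside each other. Complex I summed to 2418, 2721 and 2708 CPM in pMIR-Sox2 replicates 1 to 3, against 2785, 2804 and 2692 CPM in pMIR replicates 1 to 3. Complex IV summed to 1802, 2096 and 2005 CPM in pMIR-Sox2 and to 2024, 2032 and 1961 CPM in pMIR. In both complexes pMIR-Sox2 replicate 1 was the lowest library and the groups overlapped. Over all 77 members the sums were 10322, 10871 and 11056 CPM in pMIR-Sox2 and 11652, 11063 and 11082 CPM in pMIR, which do not overlap, although pMIR-Sox2 replicate 3 and pMIR replicate 2 nearly meet. That gap depends on the TMM scaling factors, 1.01 to 1.05 in pMIR-Sox2 and 0.969 to 0.98 in pMIR. On library totals alone the groups overlap in this sum too. Complex III summed to 948, 1023 and 1058 CPM in pMIR-Sox2 and to 1126, 1055 and 1066 CPM in pMIR. Complex V summed to 4545, 4427 and 4667 CPM in pMIR-Sox2 and to 5072, 4573 and 4729 CPM in pMIR. Atp5a1 (means of 1166 CPM in pMIR-Sox2 and 1153 CPM in pMIR) and Atp5b (1407 and 1554 CPM) weigh most in that sum. The median log2 fold change of the members of complex V was −0.02. Unpaired, the groups overlapped in complexes III and V, while each pMIR-Sox2 library was below the pMIR library of the same number in all 3 pairs. In neither complex does that order hold in every pair on library totals alone. Complex II averaged 609.7 ± 6.97 CPM in pMIR-Sox2 and 625 ± 24.6 CPM in pMIR (SD, n = 3 each). As log2 ratios of the mean sums these were −0.08 for complex I, −0.04 for complex II, −0.10 for complex III, −0.03 for complex IV and −0.08 for complex V. Reads that aligned to more than 1 place were 23.1% of the table's total in pMIR-Sox2 replicate 1 and 25.3 to 26.5% in the other 5 libraries; their part in its low sums was not tested.

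**Figure D4:**
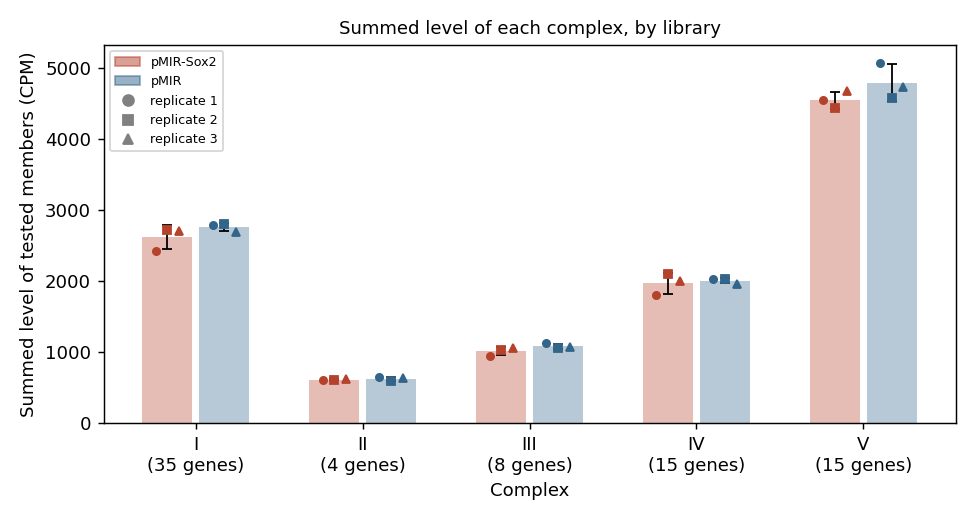
Summed level (CPM, bars from 0) of the tested members of each complex, pMIR-Sox2 on the left and pMIR on the right; bars are means, error bars SD (n = 3 each) and markers the replicates. The groups overlap in each complex, pMIR-Sox2 is below pMIR in every same-numbered pair in complexes III and V, and pMIR-Sox2 replicate 1 is the lowest library of complexes I, III and IV. The order within pairs depends on the TMM scaling and does not hold in every pair on library totals alone.

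Lists of related genes are set beside the 11.7% of subunit genes and 43.2% of all genes called. The difference between lists was not tested. Calls over all genes moved between runs too, so the counts by run are no property of a list alone. All-gene falls numbered 2577 in the test reported, 3314 with the replicate block, 2059 with library totals only and 1783 without pMIR replicate 1. All-gene rises in the same order numbered 2990, 3486, 3414 and 2362. Of 13 subunit genes in mitochondrial DNA, 8 entered the test and 0 passed in edgeR, DESeq2 or limma-voom, while at an unadjusted p under 0.05 edgeR had 1 lower (mt-Nd6) and 0 higher. With the replicate block, mt-Nd6 (−0.36 in the fit without it, adjusted p = 0.00807 with the block) and mt-Nd1 (−0.27, adjusted p = 0.0315) fell. Without pMIR-Sox2 replicate 3 there were 2 falls and without pMIR replicate 1 there was 1. mt-Co1, the catalytic subunit of complex IV, stood at 12542, 16480 and 17535 CPM in pMIR-Sox2 and at 11789, 16562 and 16589 CPM in pMIR, with replicate 1 lowest in both groups. By contrast mt-Co2, 1 of the 8 tested, was read at 7 to 16 counts per library in pMIR-Sox2 and 16 to 32 in pMIR. mt-Atp6, mt-Atp8, mt-Co3, mt-Nd3 and mt-Nd4l had at most 20 counts in any library. Reads of no unique place, 23.1 to 26.5% of a library's total, are not in these counts. Their part in the low values was not tested, so such values do not show that a transcript was absent.

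Assembly factors, which build the complexes, rose in 5 and fell in 12 of 45 tested members (37.8% called), with a median of −0.11. Sco1, which brings copper to complex IV, fell to 37.1 ± 2.33 CPM in pMIR-Sox2, against 70.9 ± 8.24 CPM in pMIR (log2 fold change −0.93). Ecsit, needed to build complex I, fell to 20.6 ± 2.26 CPM in pMIR-Sox2, against 32.1 ± 1.44 CPM in pMIR (−0.64). 1110058L19Rik, named Sdhaf4 in GENCODE M21 and a factor of complex II, rose by 0.87, and Fam36a, named Cox20 there and a factor of complex IV, by 0.56. The falls numbered 5 with library totals only, 3 or 4 with pMIR-Sox2 replicate 1 or 2 left out, 3 without pMIR replicate 1 and 6 without pMIR replicate 3. The rises numbered 2 without pMIR-Sox2 replicate 2 or pMIR replicate 3 and 3 without pMIR replicate 1 or pMIR replicate 2.

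Of 26 genes of mitochondrial protein import, 13 fell, 3 rose and 10 did not pass (61.5% called), with a median of −0.33. Tomm5, of the outer membrane entry pore, fell to 23.3 ± 1.14 CPM in pMIR-Sox2, against 38.2 ± 3.99 CPM in pMIR (−0.71), and Hspa9, the matrix chaperone of the import motor, fell by 0.82. Tomm70a, a receptor of the same pore, rose to 438 ± 105.7 CPM in pMIR-Sox2, against 219.8 ± 13.2 CPM in pMIR (0.99). Pmpcb, of the presequence peptidase, rose by 0.32, a call that ended without pMIR replicate 2 (adjusted p = 0.0548) or pMIR replicate 3 (0.0734); the rises then numbered 1 in each case.

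Of 21 citric acid cycle and pyruvate dehydrogenase genes, 7 fell, 4 rose and 10 did not pass (52.4% called), with a median of 0.04. The 7 that fell encode cycle enzymes (Cs, Idh3a, Idh3b, Ogdh, Dlst, Suclg1 and Fh1). The 4 that rose encode pyruvate dehydrogenase subunits or kinases (Pdha1, Pdhb, Pdk1 and Pdk2), a split made after the values were seen. Dlst, of the oxoglutarate dehydrogenase, fell to 157 ± 3.16 CPM in pMIR-Sox2, against 227 ± 18.3 CPM in pMIR (−0.54), and Suclg1, of succinyl-CoA ligase, fell by 0.41. Pdhb, of pyruvate dehydrogenase, rose to 254 ± 29.2 CPM in pMIR-Sox2, against 92.3 ± 7.69 CPM in pMIR (1.46), and Pdk1, a kinase that inhibits that enzyme, rose by 1.59. With library totals only 7 rose and 2 fell. With the replicate block 7 rose, the cycle enzymes Idh2 and Suclg2 among them, and 7 fell. The falls numbered 4 with no filter, 3 or 2 with pMIR-Sox2 replicate 1 or 2 left out, 2 without pMIR replicate 1, 4 without pMIR replicate 2 and 2 without pMIR replicate 3.

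A mixed list of 15 genes for carriers, pores, cytochrome c and some further proteins had 3 that fell, 2 that rose and 10 that did not pass (33.3% called), with a median of −0.16. It holds 3 proteins of the complexes themselves, Cyc1, Cox7a2l, which is also among the 77 members, and Ndufab1, the acyl carrier protein found in complex I. Ndufab1 was 1 of the 3 that fell, to 33.97 ± 1.74 CPM in pMIR-Sox2, against 41.5 ± 2.87 CPM in pMIR (−0.29, edgeR adjusted p = 0.0456). Cycs, the electron carrier between complexes III and IV, fell to 42.2 ± 5.28 CPM in pMIR-Sox2, against 57.5 ± 7.03 CPM in pMIR (−0.45, edgeR adjusted p = 0.0213; 0.0619 without pMIR-Sox2 replicate 2 and 0.0907 without pMIR replicate 1). Ucp2, a carrier of the inner membrane, fell by 0.32 (adjusted p = 0.0451), a call that ended with library totals only (0.0877), with no filter (0.0673) and without any library but pMIR-Sox2 replicate 2 or 3 (0.0861 to 0.125). Chchd10, a protein of the space between the membranes, rose by 0.81 and Slc25a11, the oxoglutarate carrier, by 0.62. The falls numbered 5 with the replicate block, 1 with library totals only, with no filter and without pMIR-Sox2 replicate 1, pMIR-Sox2 replicate 2 or pMIR replicate 3, and 0 without pMIR replicate 1.

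Of 21 regulators of respiratory genes, 7 fell, 4 rose and 10 did not pass (52.4% called), with a median of −0.16. Ppargc1a, the coactivator PGC-1 alpha, rose to 2.61 ± 0.0834 CPM in pMIR-Sox2, against 0.671 ± 0.255 CPM in pMIR (1.97). Its relative Ppargc1b fell to 2.03 ± 0.446 CPM in pMIR-Sox2, against 4.09 ± 0.638 CPM in pMIR (−1.01). Pprc1, another relative, fell to 33.1 ± 10.03 CPM in pMIR-Sox2, against 71.1 ± 10.7 CPM in pMIR (−1.10), and Myc fell by 0.98. Yy1 rose by 0.31 (edgeR adjusted p = 0.0211), a call that ended without pMIR replicate 1 (0.0646), pMIR replicate 2 (0.0787) or pMIR replicate 3 (0.0740). The rises of the list numbered 2 without pMIR-Sox2 replicate 1, pMIR-Sox2 replicate 2 or pMIR replicate 2 and 1 without pMIR replicate 1 or pMIR replicate 3, and the falls 4 without pMIR replicate 1.

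**Figure D5:**
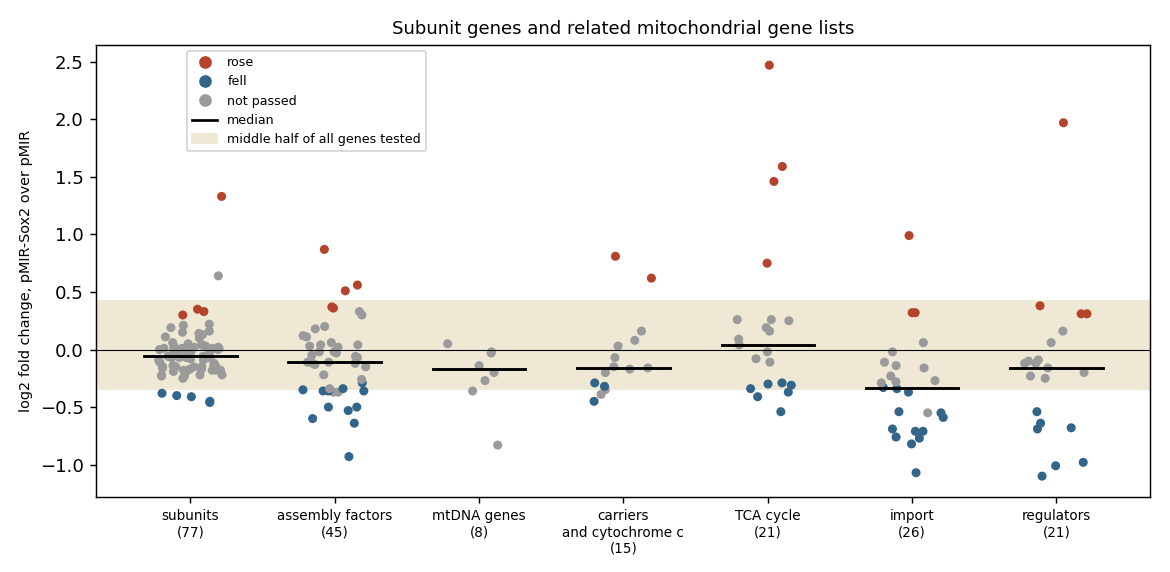
Log2 fold change (pMIR-Sox2 over pMIR) of each tested gene of the subunits and of 6 related lists, with the number tested under each name; red rose, blue fell, grey did not pass, black lines are medians and the shaded band runs between the quartiles of all genes tested. The subunit genes lie within a narrow range except for Cox7a1 at 1.33 and Cox6a2 at 0.64, while import genes reach down to −1.07. The list named TCA cycle reaches up to 2.47 with Pdk2, a kinase of pyruvate dehydrogenase. Its highest citric acid cycle enzyme is Suclg2 at 0.26, which did not pass.

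The 3 matching rows that are no subunits did not pass. Cox4nb, which encodes a part of the ER membrane protein complex and shares exonic sequence with Cox4i1, had a log2 fold change of −0.22 (edgeR adjusted p = 0.112). Atp5s and Atp5sl, which are related to ATP synthase by name, had 0.08 and 0.09.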

How the data were processed

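RNA of 6 libraries was counted per Ensembl gene. The deposited values are raw counts of whole reads, 1 column per library; the build mm9 and the tools HTSeq 0.6.1p1, TopHat2 2.0.11, Trimmomatic 0.32, SAMtools 0.1.19 and Bowtie2 2.2.2 are named, without roles, per the submitters' processing notes. Strandedness and annotation release: not given in the sources used here. A set of 5 final lines that name no gene (46.8 to 48.1% of a library's total, with reads of no unique place at 23.1 to 26.5%) stayed out. Genes were fitted with edgeR 4.0.16 in R 4.3.3 (filterByExpr, TMM, robust quasi-likelihood, pMIR-Sox2 over pMIR, no block), with Benjamini-Hochberg adjustment over 12899 genes at 0.05; Sox2 was left out of counts. SE is the log2 fold change over the square root of F, and the median SE of the subunits was 0.10. The fit was tested on simulated data. Alternatives were RLE scaling, library totals, no filter, leaving out each library, a replicate block, DESeq2 1.42.0 and limma-voom (limma 3.58.1). Same-numbered libraries deviated together (r = 0.242, 0.359 and 0.189 across genes, against −0.241 to 0.034 for libraries of different numbers). Their deposited columns also share a number in their names. The replicate numbers, from the titles, were therefore taken to pair the libraries. Lengths and exon overlaps came from GENCODE M21 (GRCm38), which held all 81 members. A length joins all annotated exons of a gene and can exceed that of the transcript present, which lowers its level per kilobase. Members, lists and motifs were chosen with earlier results of these data known. The rule named, per complex, up to 3 rises and 3 falls by adjusted p and the 2 highest levels per kilobase, then isoform pairs, and up to 2 per direction from each related list. Other genes named (such as Ndufs3, Ndufb4, Atp5l, Cyc1, Ndufab1 and Ppargc1b) were chosen after their values were seen. Values of 1 subunit gene and 1 cell type marker are not reported here.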

Additional observations from a re-analysis of the deposited data

How the results depend on the processing

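Of the subunit genes, 4 rose and 5 fell in the test reported. These counts were the same with RLE scaling, no filter, DESeq2 and limma-voom, and with the replicate block 4 rose and 6 fell; the block added Ndufs3 and changed no other subunit call. Library totals only gave 5 rises and 3 falls. Leaving out 1 library gave 1 to 5 rises and 2 to 8 falls. The median log2 fold change with library totals only was 0.01 for complex I, 0.01 for complex II, −0.02 for complex III and 0.06 for complex V, against −0.07, −0.07, −0.09 and −0.02 with TMM; this scaling moved the median of all genes from −0.02 to 0.06 as well. For complex IV the mean difference in log2 CPM over members was 0.12, against a log2 ratio of sums of −0.03, since the mean weights Cox7a1 and Cox6a2 like any other member. Of all genes, 3414 rose and 2059 fell with library totals only, against 2990 and 2577, and the counts without 1 library ran from 2362 to 3321 rises and 1783 to 2885 falls. Fewer samples enter the fits without a library. Depth limits the genes of few counts, Cox7a1, Cox6a2, Cox6b2 and Ndufa4l2. Of the 77 subunit genes, 21 have at least 1 near-identical annotated pseudogene with which they may share reads, and 28 share exonic sequence with another gene. Reads of no unique place and ambiguous reads stayed out, so these genes may also have lost reads.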
